A study of Mus musculus with 4 samples.

Results

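Transcripts of the enzymes that build and break down haem were followed in mouse adrenal glands 1 h after dexamethasone. The set held 9 genes, taken by name from the 54532 genes of the count table: 8 enzymes of haem synthesis (Alas1, Alas2, Alad, Uros, Urod, Cpox, Ppox and Fech) and haem oxygenase 1 (Hmox1). All 9 had enough reads to be tested, among 16027 genes in all, in libraries of 21904510 to 26948588 counts. The set was picked with the difference between dexamethasone and PBS in view, so the members' differences are given as a description. The glands came from adult male C57BL/6 mice. One group received dexamethasone, a synthetic glucocorticoid, at 10 µg by intraperitoneal injection, and the other received phosphate-buffered saline (PBS), the vehicle, by the same route. Each group had 5 mice whose right adrenals were pooled into 2 libraries, of 2 and 3 animals, so n = 2 libraries per group throughout and the spread is between pools, not between mice. The glands were whole, so values are sums over cortex, medulla, vessels and blood, and fewer cells of a type cannot be told apart from less RNA per cell.

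Haem is an iron-holding ring that steroid-making cytochrome P450 enzymes need at their active site, which makes the adrenal cortex a large user of it. Its synthesis begins in the mitochondrion, where 5-aminolevulinate synthase joins glycine to succinyl-CoA. This is the rate-limiting step, carried out by the enzyme of Alas1 in most tissues and by that of Alas2 in red blood cell precursors. The middle steps, among them those encoded by Alad, Uros and Urod, run in the cytosol, and the last ones, encoded by Cpox, Ppox and Fech, in the mitochondrion. Haem represses Alas1, whereas haem oxygenase 1 opens the ring and is induced by haem and by oxidative stress.

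The promoters of Alas1 and Alas2 are shown because these genes encode the alternative forms of the rate-limiting enzyme. Both windows, from RefSeq on GRCm38.p6, run from 250 bases before to 50 bases after an annotated start, 5′ to 3′. Capitals mark matches to the motifs searched. The Alas1 window is chr9:106247681-106247980 on the minus strand, and the Alas2 window is chrX:150547167-150547466 on the plus strand.

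Alas1 promoter: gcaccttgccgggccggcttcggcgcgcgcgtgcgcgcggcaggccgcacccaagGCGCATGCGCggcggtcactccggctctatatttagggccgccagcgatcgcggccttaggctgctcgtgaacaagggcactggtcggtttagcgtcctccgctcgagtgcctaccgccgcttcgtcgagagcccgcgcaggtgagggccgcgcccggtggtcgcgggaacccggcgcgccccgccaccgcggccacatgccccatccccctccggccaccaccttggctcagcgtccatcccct
Alas2 promoter: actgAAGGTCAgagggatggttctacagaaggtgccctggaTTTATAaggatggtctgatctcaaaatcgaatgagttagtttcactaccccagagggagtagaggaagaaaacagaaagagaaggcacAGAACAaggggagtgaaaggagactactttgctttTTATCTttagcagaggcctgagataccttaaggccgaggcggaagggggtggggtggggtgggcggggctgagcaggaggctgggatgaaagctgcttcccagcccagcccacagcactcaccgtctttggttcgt

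The 7 motifs, searched on both strands, were these: AGAACA, a single arm of the glucocorticoid receptor element, TGACGTCA for CREB, and AAGGTCA for Nr5a1; TGACNNNGC, the antioxidant element; AGATAA, read by Gata1 and its relatives; GCGCATGC for Nrf1; and the box named TATAAA. Windows were read for 7 of the 9 genes, 10 windows in all. In Alas1 the capitals are a pair of overlapping Nrf1 matches on opposite strands, from -195 to -186. The same bases lie in the window of the other annotated start, and 2.71% of all 32851 windows hold this motif. The Alas2 window held an Nr5a1 match from -246 to -240 (4.72% of windows), a TATAAA match from -209 to -204 (13.6%), an AGAACA match from -121 to -116 (19%) and a GATA match from -86 to -81 (11.2%). Elsewhere in the set, AGAACA matched in 1 window each of Alad and Uros, and the GATA motif in that of Cpox. The full receptor element, a pair of AGAACA arms facing each other 3 bases apart with at most 1 mismatch, was in 0.164% of all windows and in none of the 10. No match says only that these letters are not in these windows.

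Alas2 messages also carry an iron-responsive element near the 5′ end, a hairpin that iron regulatory proteins bind when iron is scarce. It is shown because it sets this gene apart within the set: 2 of 4 Alas2 transcripts in GENCODE release M21 matched the hairpin, and no transcript of the other 7 genes searched did (Fech was not searched). The search, limited to the 5′ end of each transcript, asked for a CAGTG loop on a stem of 5 paired bases with an unpaired C below it. Capitals mark the loop and the 28 bases come from the X chromosome.

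Alas2 iron-responsive element: tggttcgtcctCAGTGCagggcaacagg

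Alas1 stood out among the 9. It was at 479 and 643 CPM (reads scaled to a common library size with TMM factors) in dexamethasone replicates 1 and 2, against 1444 and 1219 CPM in PBS replicates 1 and 2. Both dexamethasone libraries were far below both PBS libraries, and the gap was wider than the range within either group. The means were 561 ± 116 CPM after dexamethasone and 1332 ± 159 CPM after PBS (SD, n = 2), a level 2.37-fold lower after dexamethasone. The log2 fold change of Alas1 (ENSMUSG00000032786, GRCm38 chromosome 9, 106233455 to 106248654) was −1.25 ± 0.18 (SE), which ranked 230 from the lowest among the 16027 genes. An antisense gene, 4930500F10Rik, shares 465 exonic bases with Alas1 and stood at 0.145 to 0.673 CPM.

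In the fit across all genes, Alas1 was the single member to pass the threshold, and so be called, as lower, with none called higher. That fit, with the quasi-likelihood test of edgeR and an adjusted p (Benjamini-Hochberg) under 0.05, called 4.63% of all genes, 3.26% higher and 1.37% lower, and since the set was chosen from this contrast nothing is read from the share of members called. At an unadjusted p under 0.05 there were 1 higher and 4 lower members, DESeq2 called 0 higher and 2 lower, and limma-voom called 0 higher and 1 lower. The members' median log2 fold change was −0.39, against 0.01 over all genes tested. With a trend on gene length removed, as described below, the members' median was −0.24, against 0.01 over all genes.

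**Figure D1:**
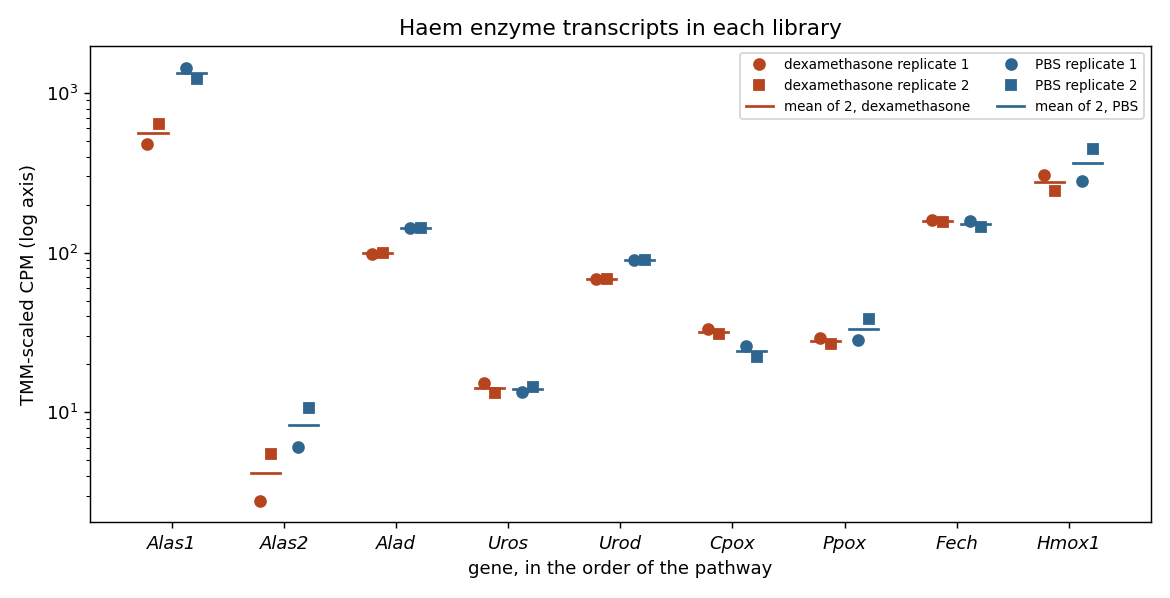
TMM-scaled CPM on a log axis for the 9 genes in the order of the pathway; each point is a library and each line the mean of 2 libraries of a group. Alas1 shows the widest gap, with 479 and 643 CPM after dexamethasone, against 1444 and 1219 CPM after PBS, while Uros, Ppox, Fech and Hmox1 overlap between groups.

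The erythroid form, Alas2 (ENSMUSG00000025270, GRCm38 chromosome X, 150547375 to 150570638), was scarce. It had 75 and 151 reads in the dexamethasone libraries and 160 and 221 reads in the PBS libraries, which is 2.79 and 5.49 CPM after dexamethasone, against 6.02 and 10.6 CPM after PBS. The groups did not overlap. Dexamethasone replicate 2 and PBS replicate 1 nearly met, and their 95% Poisson intervals, which cover counting error only, overlapped at 4.65 to 6.44 CPM and 5.13 to 7.03 CPM. The difference, −1.0 ± 0.37 (SE) on the log2 scale, did not pass. Leaving out dexamethasone replicate 1 gave −0.60, and leaving out PBS replicate 2 gave −0.55. It passed at −1.57 when dexamethasone replicate 2 was left out, at −1.37 when PBS replicate 1 was, and with no filter on low counts. Alas2 shares 311 exonic bases with Apex2, a DNA repair endonuclease gene on the other strand. Apex2 stood at 18.2 and 18.9 CPM after dexamethasone and at 13.4 and 13.9 CPM after PBS, above Alas2 in every library. Whether the counting used strand is not given in the sources used here, and reads from the shared stretch cannot be placed.

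Red blood cell transcripts, summed over the 10 markers in the table, were at 173 and 160.2 CPM after dexamethasone and at 253 and 425 CPM after PBS. Of the 5 markers tested, 3 fell, the globin genes Hbb-bs, Hba-a1 and Hba-a2, whose near-identical copies make the division of reads uncertain. They were at −1.08, −1.17 and −1.45 on the log2 scale, and at −0.54, −0.63 and −0.85 with the trend on gene length taken out. Of the 13 alternatives, Hbb-bs passed in 10, Hba-a1 in 11 and Hba-a2 in 9. None of the 10 was at 0 in every library, but Slc4a1, which encodes the red cell anion exchanger, had 3 to 6 reads. The part of red blood cells in the Alas2 difference was not tested.

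Among the cytosolic enzymes, Alad and Urod had pools that matched closely within each group. Alad (ENSMUSG00000028393, chromosome 4, 62509169 to 62519918), whose enzyme joins a pair of aminolevulinate molecules, was at 98.3 and 99.2 CPM in the dexamethasone libraries, against 142 CPM in each PBS library. The groups did not overlap, and the gap was far wider than the spread within them. Its log2 fold change, −0.52 ± 0.13 (SE), missed the threshold. It ran from −0.54 to −0.52 as each library was left out, and it passed without PBS replicate 1 and with DESeq2 (−0.54 in each) and with no filter on low counts (−0.52).

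Urod, which encodes uroporphyrinogen decarboxylase, showed the same picture at a smaller size. It was at 68.8 CPM in each dexamethasone library and at 90.1 and 90.4 CPM in the PBS libraries. The difference of −0.39 ± 0.13 (log2, SE) missed the threshold and stayed between −0.41 and −0.39 when each library was left out. These close pairs say that the libraries matched for these genes, not that the mice did.

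Uros, the gene of uroporphyrinogen III synthase, overlapped fully between groups. It was at 15.3 and 13.2 CPM after dexamethasone and at 13.3 and 14.4 CPM after PBS, a log2 fold change of 0.04 ± 0.18. The range of the dexamethasone libraries held both PBS values.

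Among the mitochondrial enzymes of the late steps, Cpox, the coproporphyrinogen oxidase gene, was the member with the highest log2 fold change, 0.41 ± 0.16. It was at 33 and 30.8 CPM after dexamethasone and at 25.9 and 22.2 CPM after PBS. The groups did not overlap, but the difference did not pass. It ran from 0.29 to 0.51 as each library was left out.

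Ppox, which encodes protoporphyrinogen oxidase, was at 29.1 and 26.6 CPM after dexamethasone and at 28.5 and 38.1 CPM after PBS. Its groups overlapped, with PBS replicate 2 standing above the other 3 libraries. Its log2 fold change of −0.25 ± 0.18 became −0.04 with that library left out. Ppox shares 791 exonic bases with B4galt3, a galactosyltransferase gene on the other strand at 10.7 to 13.9 CPM. Fech, the gene of ferrochelatase, which inserts the iron, was nearly level. It was at 159 and 156 CPM after dexamethasone and at 157 and 144 CPM after PBS, a log2 fold change of 0.06 ± 0.14.

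Across the set, the groups were apart in every library for 5 members (Alas1, Alas2, Alad, Urod and Cpox). Over all genes tested 60.5% were so, and nothing is read from the members' count. Of the 9, 6 had a negative log2 fold change and 3 a positive one (Uros, Cpox and Fech). The positive sign of Uros and Fech was not stable: Uros was at −0.08 without dexamethasone replicate 1 and Fech at −0.01 without PBS replicate 2.

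The length of the genes touched these values. In each library, a gene's deviation from its own mean over the 4 libraries ran with its listed length. The slopes, in log2 CPM per log2 of length, were 0.0343 and 0.175 in the dexamethasone libraries and −0.0562 and −0.154 in the PBS libraries, so the trend moved with the group. With it removed Alas1 stood at −1.36 ± 0.16 (SE) and was still called lower. Alad moved to −0.27 ± 0.12, Urod to −0.24 ± 0.11, Cpox to 0.28 ± 0.14, Alas2 to −0.80 ± 0.38 and Hmox1 to −0.13 ± 0.18. Thus Alad, a short gene at 1871 listed bases, came closer to 0 while Alas1, at 6174, moved further from it. With the trend removed 2.77% of all genes were called.

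**Figure D2:**
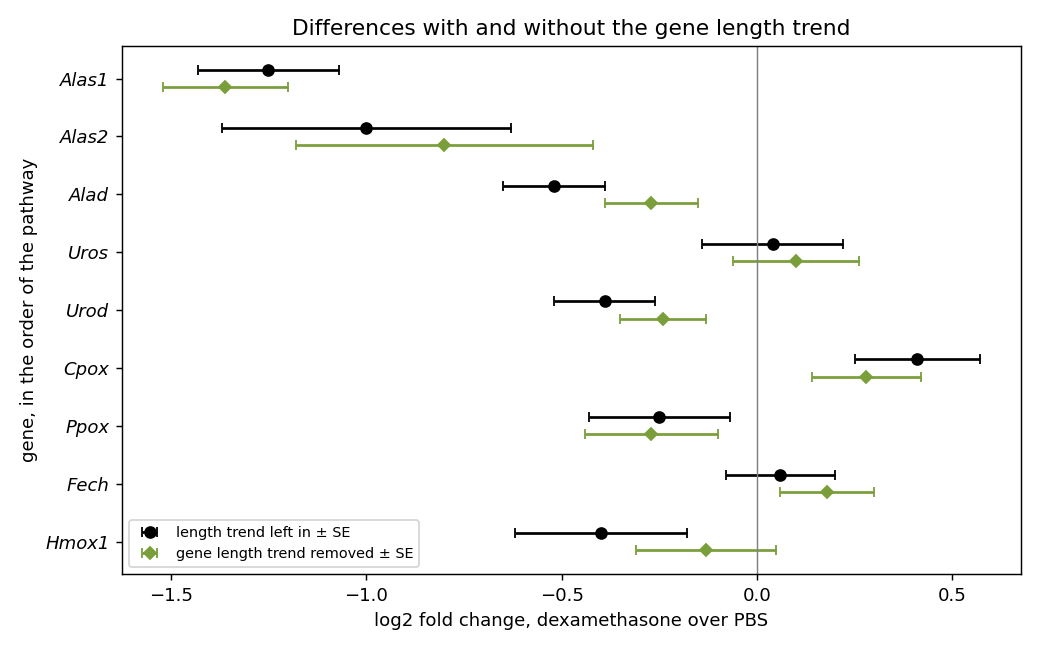
Log2 fold change of dexamethasone over PBS on the x axis for the 9 genes, with the gene length trend left in (circles) or removed (diamonds); bars are standard errors. With the trend removed Alas1 stands at −1.36 (−1.25 with it left in), Alad at −0.27 (−0.52) and Hmox1 at −0.13 (−0.40).

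Levels between genes were set side by side per length, as CPM per kb of listed length. Alas1 was at 77.6 and 104 CPM per kb after dexamethasone and at 234 and 197 CPM per kb after PBS. Alad, Fech and Urod followed, at 75.9, 54.9 and 34.9 CPM per kb in their highest libraries and 52.5, 49.7 and 26.5 in their lowest. Ppox, Cpox and Uros were lower, between 3.33 and 8.43 CPM per kb. Alas2 was last by its mean, at 1.16 to 4.42 CPM per kb. Hmox1 came first by its mean over the 4 libraries. Neighbours in this order overlapped for Hmox1 with Alas1, Alad with Fech, Cpox with Uros and Uros with Alas2.

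Alas1 made up most of the synthase transcripts: 98.5% and 97.9% of Alas1 and Alas2 per length after dexamethasone, and 98.9% and 97.8% after PBS. Within each library, and so free of scaling, Alas1 was at 4.7 and 6.42 times the median of the 6 later enzymes after dexamethasone, and at 11.4 and 9.12 times that median after PBS. Its share of the 8 synthesis enzymes per length was 34% and 41% after dexamethasone, against 56.4% and 52.2% after PBS. For that ratio and that share each dexamethasone library was below each PBS library. Both are built on Alas1, so they restate its difference and are no separate evidence. Neither was corrected for the length trend.

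**Figure D3:**
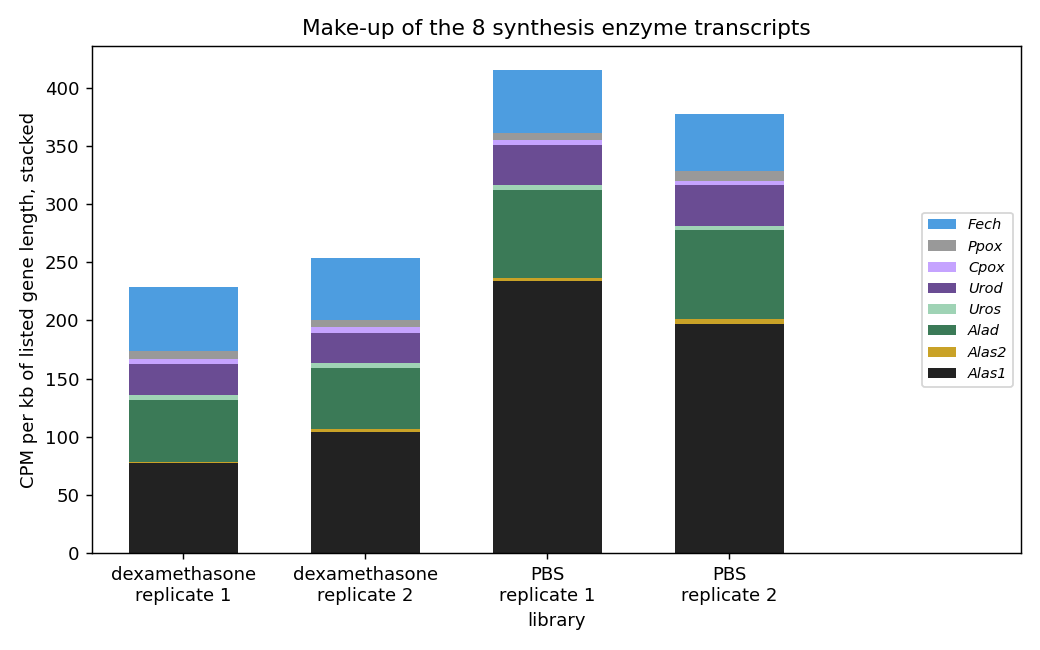
CPM per kb of listed gene length, stacked over the 8 synthesis enzymes, in each library. Alas1, the black part at the base, is 34% and 41% of the stack after dexamethasone and 56.4% and 52.2% after PBS, and the stacks reach 228 and 254 after dexamethasone and 415 and 378 after PBS.

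The order between genes rests on the length used. The listed length equals the summed length of merged exons for 98% of genes found in GENCODE M21, which is longer than a single message. Divided by the longest principal transcript instead, Alas1 was at 141 and 189 CPM per kb after dexamethasone and at 425 and 359 CPM per kb after PBS. It then ranked 1 by its mean, with Hmox1 at 196 and 155 CPM per kb after dexamethasone and at 181 and 284 CPM per kb after PBS, still above Alas1 in dexamethasone replicate 1. Fech, whose principal transcript of 6571 bases exceeds its listed 2901, came after Urod, but this place is uncertain. Its listed coordinates differ from those in GENCODE M21, where its merged exons sum to 13838 bases. The counts of Fech and its principal transcript thus rest on different gene models.

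Hmox1 (ENSMUSG00000005413, chromosome 8, 75093621 to 75100589), the gene of the breakdown enzyme, varied more between the PBS pools than between the group means. It was at 308 and 242 CPM after dexamethasone and at 283 and 445 CPM after PBS. PBS replicate 2 stood well above the rest, and PBS replicate 1 lay between the dexamethasone libraries. The log2 fold change was −0.40 ± 0.22. It became −0.05 with PBS replicate 2 left out, and −0.71, where it passed, with PBS replicate 1 left out. The mean level per length was 157 ± 26.6 CPM per kb after dexamethasone and 208 ± 65.2 CPM per kb after PBS (SD, n = 2), the highest of the 9 after dexamethasone. Macrophages, which break down haem from old red cells, gave 407 and 326 CPM over 15 markers after dexamethasone and 316 and 411 CPM after PBS. None of these markers was at 0 in every library. Of 12 tested, 2 rose, the haemoglobin scavenger receptor gene Cd163 at 7.78 and 7.74 CPM after dexamethasone, against 4.14 and 4.09 CPM after PBS, and the mannose receptor gene Mrc1. Mrc1 passed in all 13 alternatives and Cd163 in 5. The 12 had a median log2 fold change of −0.04, and of 0.23 with the length trend removed. At an unadjusted p under 0.05 there were 3 higher and 1 lower, the lower one Fcgr1 (−0.84 ± 0.25). The part of macrophages in Hmox1 was not tested.

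**Figure D4:**
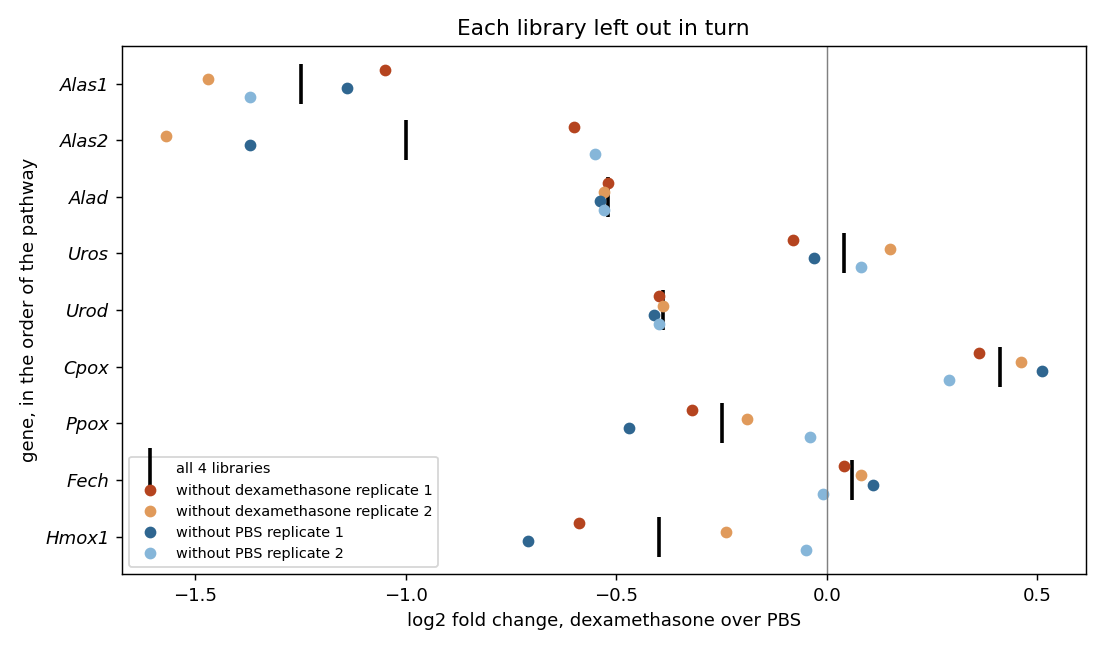
Log2 fold change of dexamethasone over PBS on the x axis for the 9 genes with all 4 libraries (vertical marks) and with each library left out in turn (points). Alad and Urod hardly move, Alas1 stays between −1.47 and −1.05, and Hmox1 ranges from −0.71 to −0.05.

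Around the enzymes, 120 other genes of haem, iron and their control were tested, from 127 listed by function. Of these 2 rose and 6 fell, 1.67% and 5% of the 120, beside 3.26% and 1.37% of all genes. Their median log2 fold change was −0.16, and −0.10 with the length trend removed. With the length trend removed 2 rose and 3 fell, and without PBS replicate 1 the counts were 7 and 32.

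Of 22 tested regulators 1 rose and 1 fell. Nr5a1, the transcription factor gene of steroid synthesis, was at 387 and 406 CPM after dexamethasone and at 1027 and 1001 CPM after PBS. It fell by 1.35 on the log2 scale (SE 0.14, edgeR adjusted p = 0.00461), close to the size for Alas1. Gata1, a transcription factor gene known for driving Alas2 and globin genes in red cell precursors, rose. It had 114 and 133 reads after dexamethasone and 31 and 17 reads after PBS, or 4.24 and 4.83 CPM against 1.17 and 0.817 CPM. Its log2 fold change was 2.17 ± 0.32 (edgeR adjusted p = 0.011) and it passed in all 13 alternatives, while Alas2 and the globins were lower in the same dexamethasone libraries. Klf1, another red cell factor, had 5 and 6 reads after dexamethasone and 1 and 5 after PBS and was not tested.

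The regulators named for a known link to Alas1 did not pass. Ppargc1a, a coactivator that induces Alas1 in fasted liver, was at 1.6 and 2.69 CPM after dexamethasone and at 1.02 and 2.6 CPM after PBS. Nrf1 had a log2 fold change of −0.25 ± 0.16, Foxo1 0.26 ± 0.14 and Nr1d1, a haem-binding repressor of the clock, 0.26 ± 0.15. Ppargc1a, Nrf1, Foxo1 and Nr1d1 were picked for their known link to Alas1, after their values were seen. Bach1, the haem-sensing repressor of Hmox1, was at 21.5 and 24.9 CPM after dexamethasone and at 21.7 and 22.2 CPM after PBS, and was named likewise. Nfe2l2, the activator of Hmox1 known as Nrf2, was at 116 and 105 CPM after dexamethasone and at 154 and 146 CPM after PBS, a log2 fold change of −0.44 ± 0.14 (edgeR adjusted p = 0.0893). Nr1d2, the relative of Nr1d1, had 0.51 ± 0.15 (adjusted p = 0.0753).

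Of 12 other Nrf2 targets, 1 fell: Osgin1, an oxidative stress growth inhibitor gene (−0.76 ± 0.14, edgeR adjusted p = 0.0247). It passed in 10 of 13 alternatives. Those where it did not pass include leaving out dexamethasone replicate 2 (−0.67) and the replicate number as a block (−0.77). Srxn1, the sulfiredoxin gene, had the same high library as Hmox1. It was at 232 and 202 CPM after dexamethasone, at 341 CPM in PBS replicate 1 and at 1272 CPM in PBS replicate 2. Its log2 fold change of −1.89 ± 0.47 (edgeR adjusted p = 0.0567) became −0.66 without PBS replicate 2, where it passed. The transaldolase gene Taldo1 (−0.48 ± 0.17) and the glutathione transferase gene Gsta4 (−0.43 ± 0.16) did not pass. The 12 targets summed to 1702 and 1556 CPM after dexamethasone and to 2023 and 3129.8 CPM after PBS.

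Among 27 tested iron genes 2 fell. Fdx1, the ferredoxin gene that passes electrons to mitochondrial P450 enzymes and to iron-sulphur cluster assembly, was at 1004 and 903 CPM after dexamethasone and at 2324 and 3057 CPM after PBS (−1.50 ± 0.18, edgeR adjusted p = 0.00605). Glrx5, which encodes a carrier of such clusters, had −0.73 ± 0.17 (adjusted p = 0.0478). It did not pass without dexamethasone replicate 2 (−0.57), without PBS replicate 2 (−0.59), with library totals (−0.64), with the replicate block (−0.73) or with the length trend removed (−0.69). The ferroportin gene Slc40a1 (0.59 ± 0.17) and the ferroxidase gene Heph (0.69 ± 0.17) did not pass, at adjusted p = 0.0702 and 0.0537.

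Of 21 tested partners of haem synthesis, 1 fell: Clpp, a mitochondrial protease subunit gene (−0.64 ± 0.14, edgeR adjusted p = 0.0401). Its partner subunit ClpX is known to act on the Alas1 and Alas2 enzymes. Clpp did not pass in 7 of 13 alternatives, among them the length trend removed (−0.26), the replicate block (−0.64), library totals (−0.54) and leaving out dexamethasone replicate 1 (−0.69), dexamethasone replicate 2 (−0.59) or PBS replicate 2 (−0.56). Tspo, a porphyrin-binding outer membrane protein gene (−0.70 ± 0.18), Slc25a39, a mitochondrial carrier gene (−0.57 ± 0.16), and Tmem14c, a protoporphyrin transporter gene (−0.61 ± 0.18), did not pass.

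None of 14 tested genes of haem breakdown, export and binding passed in edgeR. At an unadjusted p under 0.05 there were 1 higher and 3 lower, DESeq2 called 1 higher and 1 lower, and limma-voom called 0. Por, which encodes the electron donor of microsomal P450 enzymes and of haem oxygenase, was at 282 and 333 CPM after dexamethasone, at 399 CPM in PBS replicate 1 and at 724 CPM in PBS replicate 2. Its log2 fold change of −0.87 ± 0.25 became −0.39 without PBS replicate 2. The biliverdin reductase gene Blvrb had −0.57 ± 0.17 (adjusted p = 0.0833). Lrp1, the receptor gene for haem bound to haemopexin, had 0.54 ± 0.16, and 0.10 with the length trend removed. Abcc2, an organic anion exporter gene, was under 1 CPM in each library.

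Of 25 tested users of haem, 1 rose and 1 fell. The metalloreductase gene Steap4 rose (0.70 ± 0.16, edgeR adjusted p = 0.0483). It did not pass without dexamethasone replicate 1 (0.55), with DESeq2 size factors (0.68), with limma-voom or with the replicate block (0.69). Cyp17a1, a P450 gene of androgen synthesis that is scarce in the adult mouse adrenal, fell (−1.64 ± 0.33, adjusted p = 0.0321), with 1.04 and 1.34 CPM after dexamethasone, against 3.2 and 4.28 CPM after PBS. With the length trend removed it did not pass (−1.42). The cytochrome c gene Cycs (−0.75 ± 0.18) and Hccs, whose enzyme attaches haem to cytochrome c (−0.70 ± 0.18), did not pass. Cyp11a1, the P450 gene of cholesterol side-chain cleavage, was at 7247 and 5592 CPM after dexamethasone and at 8752 and 10170.3 CPM after PBS (−0.56 ± 0.18, adjusted p = 0.0889) and was added for its role. The P450 genes Cyp11b1 (−0.14 ± 0.15), Cyp21a1 (−0.32 ± 0.15) and Cyp11b2 (−0.95 ± 0.28) of the same list, added beside it, did not pass either.

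The 7 cortex markers were all detected, and their summed level was 45256 and 41977 CPM after dexamethasone, against 59595 and 59751 CPM after PBS. Of them 1 fell in edgeR, Nr5a1, and 6 did not pass. At an unadjusted p under 0.05 there were 0 higher and 4 lower, and DESeq2 called 0 higher and 3 lower. The median log2 fold change of the 7 cortex markers, −0.40, was −0.11 with the length trend removed. The 7 medulla markers, all detected, summed to 11192 and 8546 CPM after dexamethasone and to 7719 and 11796 CPM after PBS. None of these passed in edgeR, with 0 at an unadjusted p under 0.05 and 0 by DESeq2. Fat cell markers summed to between 131 and 183 CPM after dexamethasone and between 160.1 and 198 CPM after PBS. Endothelial markers stood at 606 to 634 CPM after dexamethasone and 553 to 610.5 CPM after PBS. None of the 6 fat cell markers passed in edgeR (1 higher and 1 lower at an unadjusted p under 0.05), nor did any of the 6 endothelial ones (2 higher and 0 lower), and DESeq2 called 0 in both lists. The part of the make-up of the gland in the Alas1 difference was not tested.

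The genes whose values over the 4 libraries lay nearest to those of Alas1 were Kcnj5, Npr3, Twist2, Stkld1 and Hic1. Nearness was the Euclidean distance of log2 CPM after each gene's mean was taken off, from 0.093 for the potassium channel gene Kcnj5 to 0.227 for the transcriptional repressor gene Hic1. Npr3, a natriuretic peptide receptor gene, was at 16.2 and 20.3 CPM after dexamethasone and at 47.9 and 42.8 CPM after PBS. Kcnj5, Twist2 and Stkld1 were under 1 CPM in each library. For Hmox1 they were Gm12184, Pqlc1, Lgals3, Pcbd1 and Msrb1, all with their highest value in PBS replicate 2. With 4 libraries this is a loose measure: ranked by correlation instead, 0 of the 5 genes were the same for Alas1 and 1 of 5 for Hmox1.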

How the data were processed

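Whole right adrenal glands were profiled by RNA sequencing in 4 libraries. The deposited table gives raw read counts per gene, not normalized by the authors. The tools were STAR 2.5, HTSeq 0.6.1 and CASAVA 1.8 and the build mm10 (GRCm38), per the submitters' processing notes, which give no role or order. Column names were read with S for saline, D for dexamethasone and the digit for the replicate. The listed gene length is another deposited column whose making is not stated.

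Counts totalled 25968405 and 26733834 in the dexamethasone libraries and 26948588 and 21904510 in the PBS libraries. Genes were kept with filterByExpr (16027 of 27040 with a count), scaled by TMM and tested with edgeR 4.0.16 under R 4.3.3 (glmQLFit, glmQLFTest). The group was the only term, which left 2 residual degrees of freedom. Calls used a Benjamini-Hochberg adjusted p under 0.05, with the adjustment over the 16027 genes. Standard errors are the absolute log2 fold change divided by the root of its F statistic. P-values weigh the group difference against the spread between pools, as estimated with information from all genes tested. Replicates differed beyond sampling noise (chi-square per degree of freedom 26.4 for dexamethasone and 34.6 for PBS), so none was merged. The scripts were tested on simulated data.

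The members and gene lists were chosen with earlier results of these data known. Named were all members, of each pathway list up to 4 genes by p and all that passed, and the 5 genes nearest to Alas1 and to Hmox1. Genes named outside that rule (Klf1, Cyp11a1, Cyp11b1, Cyp11b2, Cyp21a1, regulators that did not pass, marker genes and overlapping genes) were chosen after their values were seen. Alternatives used DESeq2 1.42.0, limma 3.58.1 (voom), other scalings and filters, a replicate block, removal of a linear trend on log2 gene length in each library, and each library left out. Promoters are from RefSeq (GRCm38.p6) and transcripts from GENCODE M21; windows of Fech and Hmox1 were not used here. A planned comparison of the Alas1 and Alas2 proteins was not run.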

Additional observations from a re-analysis of the deposited data

How the results depend on the processing

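The lower level of Alas1 kept its direction and passed in all 13 alternatives of the test, from −1.47 to −1.05 on the log2 scale. The number of members called lower was 3 with no filter on low counts and 2 with DESeq2, and it ranged from 1 to 4 as each library was left out. It was 1 with the replicate block. Reversed signs were those of Uros without dexamethasone replicate 1 (−0.08) and PBS replicate 1 (−0.03), Fech (−0.01) and Pqlc1 (0.01) without PBS replicate 2, and Pcbd1 with the length trend removed (0.09) and with the replicate block added to that (0.10). As each library was left out, Uros ran from −0.08 to 0.15, Fech from −0.01 to 0.11 and Pqlc1 from −0.66 to 0.01. The cause was not tested. Where a group had 1 library left, it was taken to vary like the other group.

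Counts over all genes were 523 higher and 219 lower. They became 893 higher with library totals (180 lower, so that 83.2% of calls were higher, beside 70.5% with TMM, and the median gene sat at 0.10, not 0.01), 1384 and 1329 with no filter, 859 and 808 with DESeq2, 244 and 89 with the replicate block, 310 and 134 with the length trend removed, and 267 and 125 with both. Leaving out each library gave 337 to 1595 higher and 147 to 1747 lower. For the other haem, iron and regulator genes, 2 higher and 6 lower, the number higher was 1 with DESeq2 size factors, with limma-voom and with the replicate block, 4 with library totals, 6 with no filter and with DESeq2, and 2 to 7 as each library was left out. The number lower was 26 with no filter, 18 with DESeq2, 3 with the replicate block, with the length trend removed and with both, and 7 to 32 as each library was left out.

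In the order of levels per length, 5 of 9 members kept their place without division by length, and 5 with the length of the principal transcript, a choice made after seeing the data. Same-numbered pools did not deviate together (r = −0.0266 over 16027 genes), so the numbers are not taken as pairs. Over 43 genes followed, 464 of 554 values kept their direction and side of the threshold, 22 lost it, 62 gained it and 6 reversed. With 2 pools per group, small differences could not be told from the spread between pools.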
